A study of Mus musculus with 20 samples.

Results

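The replication-dependent histone genes of the mouse were examined in Comma-Dβ cells, a mammary epithelial cell line, at passage 28. Protein-coding genes on chromosomes 3, 11 and 13 of the RefSeq table for GRCm38.p6, the assembly behind mm10, were taken as members when their symbol began with H1f, H2ac, H2bc, H3c or H4c and a digit, or when an older symbol began with Hist1h, Hist2h or Hist3h. This gave 66 of the 21887 protein-coding genes placed on autosomes or sex chromosomes. The clusters were selected on H3K4me3, H3K27ac, H3K27me3 and HEB results of these same lists, so the values below describe them and test nothing. Current symbols found 63 of them, and older symbols added 3, which were H2bu2 and H2aw on chromosome 11 and H4bc24, an H2B gene (Hist1h2br) despite its symbol. Chromosome 13 held 54 members, chromosome 3 held 10 and chromosome 11 held 2. By family there were 6 H1, 18 H2A, 18 H2B, 12 H3 and 12 H4 genes. The series comprised 20 chromatin immunoprecipitation samples in 5 groups of 4 replicates that the labels call biological, made with antibodies to HEB, H3K4me3, H3K27ac and H3K27me3 and from input chromatin. The deposited files were 1 peak list per antibody, so no value has a spread between replicates and the read depth per sample is unknown. All groups used the same untreated cell line, with no genetic change named in the labels.

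Replication-dependent histone genes supply the core histones H2A, H2B, H3 and H4 and the linker histone H1 that package new DNA during S phase. They lie in clusters, have no introns in their classical form, and give messenger RNAs that end in a stem-loop in place of a poly(A) tail. The factor NPAT drives their transcription in the histone locus body after phosphorylation by cyclin E and CDK2. H3K4me3 marks promoters, H3K27ac marks active promoters and enhancers, and H3K27me3 is the mark of Polycomb repression. HEB, the product of Tcf12, is a basic helix-loop-helix E protein, a class of factor that binds E-boxes.

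The families carry different promoter elements, and the stretches just before the starts of the 6 H1 genes are shown because HEB sites, described below, lay over 4 of them. All are RefSeq sequences of GRCm38.p6, read 5′ to 3′ on the strand of the gene and ending at the base before the start. Capitals mark AAACACA, an element known from H1 promoters, the CCAAT box and TATAAA, on either strand.
H1f1: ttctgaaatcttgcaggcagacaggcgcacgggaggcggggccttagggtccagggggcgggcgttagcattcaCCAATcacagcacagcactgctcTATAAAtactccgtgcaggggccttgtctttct
H1f2: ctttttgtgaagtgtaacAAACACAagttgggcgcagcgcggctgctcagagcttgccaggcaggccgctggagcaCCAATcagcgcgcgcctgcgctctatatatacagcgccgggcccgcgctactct
H1f3: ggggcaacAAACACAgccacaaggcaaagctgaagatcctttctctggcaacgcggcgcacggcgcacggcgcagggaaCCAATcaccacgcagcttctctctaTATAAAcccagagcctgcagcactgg
H1f4: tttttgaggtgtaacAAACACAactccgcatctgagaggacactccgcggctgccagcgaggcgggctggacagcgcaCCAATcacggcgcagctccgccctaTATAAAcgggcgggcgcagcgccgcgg
H1f5: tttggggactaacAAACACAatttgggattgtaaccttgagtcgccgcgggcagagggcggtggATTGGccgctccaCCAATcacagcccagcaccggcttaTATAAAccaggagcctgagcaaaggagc
H1f6: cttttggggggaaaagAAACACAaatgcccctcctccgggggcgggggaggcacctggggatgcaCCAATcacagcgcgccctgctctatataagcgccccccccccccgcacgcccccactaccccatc
Their coordinates are chr13:23763538-23763667 for H1f1, chr13:23738677-23738806 for H1f2 and chr13:23554902-23555031 for H1f3 on the plus strand. H1f4 is at chr13:23622559-23622688 and H1f5 at chr13:21780626-21780755 on the minus strand, and H1f6 at chr13:23695681-23695810 on the plus strand. AAACACA began 112 to 122 bases before the start in 5 of the 6 genes and was not in the window of H1f1.

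For the H4 genes, capitals mark GGTCCG, part of the element that the factor HINFP reads in H4 promoters, in 3 genes where it began 46 bases before the start.
H4c3: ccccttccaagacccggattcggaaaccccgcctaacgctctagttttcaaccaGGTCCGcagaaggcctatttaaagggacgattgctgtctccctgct
H4c6: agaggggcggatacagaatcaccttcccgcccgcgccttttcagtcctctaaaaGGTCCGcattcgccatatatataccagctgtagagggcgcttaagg
H4c9: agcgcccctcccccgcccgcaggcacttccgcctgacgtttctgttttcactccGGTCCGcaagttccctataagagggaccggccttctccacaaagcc
These lie at chr13:23698459-23698558, chr13:23551669-23551768 and chr13:22041363-22041462, all on the minus strand. H2A and H2B genes often share 1 divergent promoter, and the whole interval between the starts of H2ac8 and H2bc8 (chr13:23571221-23571399, read on the strand of H2bc8) shows TTTGCAT, the core of the octamer element of H2B promoters, with CCAAT and TATAAA on either strand in capitals.
H2ac8 to H2bc8: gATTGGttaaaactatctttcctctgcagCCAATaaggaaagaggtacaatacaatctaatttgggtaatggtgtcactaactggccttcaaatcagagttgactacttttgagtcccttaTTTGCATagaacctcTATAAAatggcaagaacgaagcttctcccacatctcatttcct

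RefSeq promoters, from 250 bases before to 50 after a start, were found for 61 of the 66 members. CCAAT was present in 53 of these 61 and in 42.3% of all 17492 protein-coding genes with a promoter in the table. It was in every H1, H2A, H2B and H3 promoter found and in 3 of 11 H4 promoters. TATAAA was present in 35 of 61 members and in 14.8% of all genes. GGTCCG was in 10 of 11 H4 promoters, in 1 H2B and 1 H3 promoter and in no H1 or H2A promoter, against 12% of all genes. AAACACA was in 5 of 6 H1 promoters, in 2 H2A and 2 H2B promoters and in no H3 or H4 promoter, against 7.17% of all genes. TTTGCAT was in 7 of 16 H2B and 7 of 18 H2A promoters, against 4.83% of all genes. The windows of divergent H2A and H2B genes overlap, so such matches can be the same bases. All motifs were searched on both strands, and a match describes letters, not a bound site.

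Most histone genes carried the marks of active promoters. H3K4me3 lay within 1 kb of an end of 61 members (55.8% of all protein-coding genes) and H3K27ac at the same number (53.4% of all). These counts belong to the choice of the members and nothing is read from them. All H1, H3 and H4 members had both marks, as did 16 of 18 H2A and 15 of 18 H2B genes. H3K27me3 lay at 2 members (32.3% of all genes), H2bu2 and H2ac1. Both active marks without H3K27me3 were found at 60 members (43.3% of all genes), and none of the marks at 4 (19.1% of all). With transcript starts in place of both gene ends, 54 of 61 members with a known start carried each active mark. The 7 others were H2ac24, H1f6 and the 5 members without either mark at a gene end. The count at starts was not made over all genes, so nothing is read from it.

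**Figure D1:**
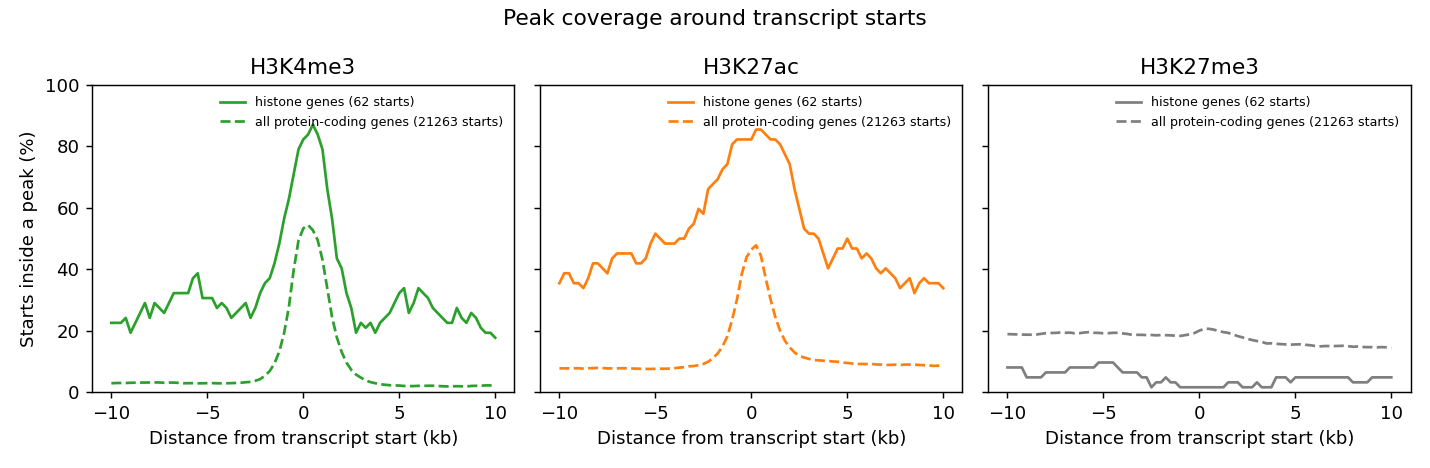
Percentage of transcript starts that lie inside a peak, by distance from the start in kb, for 62 starts of 61 histone genes (solid) and 21263 starts of all protein-coding genes (dashed), 1 panel per histone mark. H3K27ac covers 67.7% of histone gene positions 2 kb before the start, where H3K4me3 covers 35.5%.

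Peak coverage around the starts was wide. At the start itself, H3K4me3 covered 82.3% of 62 histone gene starts and H3K27ac 82.3%, against 53.3% and 46.5% of the 21263 starts of all protein-coding genes. At 2 kb before the start the shares were 35.5% for H3K4me3 and 67.7% for H3K27ac, against 5.35% and 11.1% of all. At 10 kb before the start, H3K27ac still covered 35.5% of histone gene positions, against 7.79% of all. Neighbouring histone genes lie within that distance of each other, so these positions often fall at another member. H3K27me3 covered 1.61% of histone gene starts and 20.05% of all starts.

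The active marks ranked differently at the same genes. H3K27ac peaks at histone genes were among the strongest of the list, while H3K4me3 peaks there were weak for a promoter. The deposited fold enrichment, the authors' ratio of ChIP over control for each peak, had a median of 9.34 for the strongest H3K27ac peak of the 61 members with the mark, against 4.34 over all 11696 protein-coding genes with it. For H3K4me3 the median was 8.20 at 61 members, against 20.4 over 12213 genes. As a percentile among genes with the same mark, the median member stood at 96.0 for H3K27ac and at 15.7 for H3K4me3. In H3K27ac, 50 of 61 members were among the 10.0% of genes with the highest folds. In H3K4me3, 60 of 61 were below the median of genes (6106 of all 12213 genes with the mark, or 50%), the exception being H2aw, whose peak (fold 23.1) also lies at Trim17, a gene outside the histone families. Both held together at 49 of 61 members with both marks (80.3%) and at 331 of all 10670 such genes (3.10%). Histone genes made up 14.8% of those 331. These cutoffs were chosen after the values were seen, and the fold compares peaks within a list, never between antibodies.

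**Figure D2:**
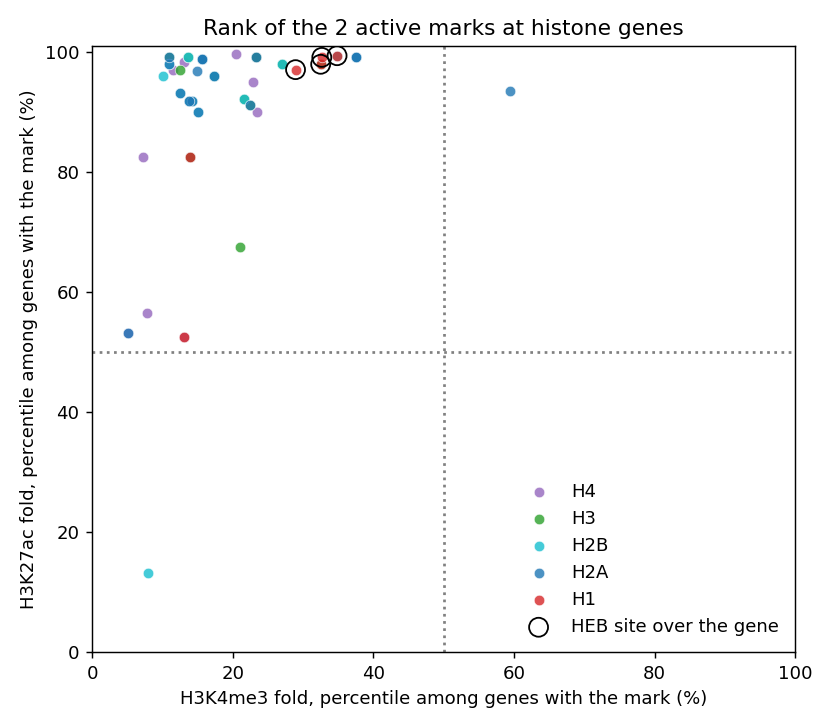
Each point is a histone gene with both active marks, placed by the percentile of its H3K4me3 fold (horizontal, %) and H3K27ac fold (vertical, %) among all protein-coding genes with that mark, coloured by family. Genes in the same peaks overlap, dotted lines mark the medians, and 60 of 61 points lie left of the H3K4me3 median.

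The weak H3K4me3 rank did not come with narrow peaks. The strongest H3K4me3 peak of a member had a median width of 3342 bp, against 2244 bp over all genes with the mark, and that of H3K27ac had 7979 bp against 2168 bp. Among the 3082 genes whose strongest H3K4me3 peak was 3 kb or wider, the 37 such members had a median percentile of 3.50. Members shared peaks: 35 distinct H3K4me3 peaks and 25 distinct H3K27ac peaks lay at the 61 members, and 20 and 18 of these, respectively, touched more than 1 member. All 35 and all 25 had a −log10 q, the authors' significance of the peak, of at least 13.2 and 7.64.

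**Figure D3:**
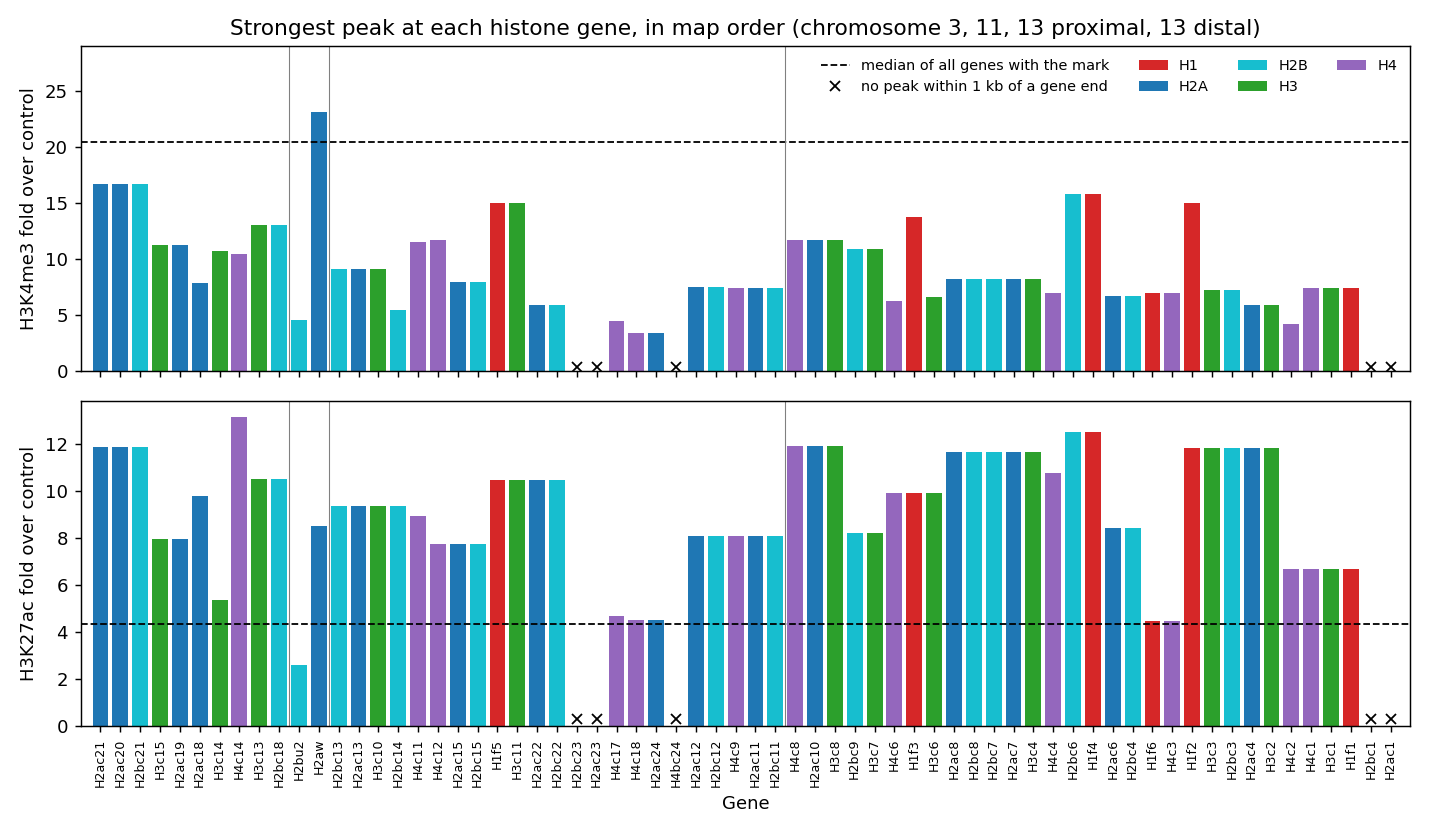
Fold over control of the strongest H3K4me3 (top) and H3K27ac (bottom) peak at each of 66 histone genes in map order, coloured by family, with bars from 0 and 1 value per antibody list. The dashed line is the median of all genes with the mark (20.4 and 4.34), and crosses mark the 5 genes with no peak within 1 kb of an end.

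HEB sites in the clusters lay over linker histone genes. The HEB list held 956 sites, and 4 of them fell within 10 kb of a member. Each covered the transcript start of an H1 gene, namely H1f2, H1f3, H1f4 and H1f5, which encode the main linker histones of somatic cells. The site at H1f5 (chr13:21780531-21781208) reached from 583 bp before the start to 94 bp after it. The site at H1f3 (chr13:23554481-23555530) reached from 551 bp before to 498 bp after its start. At H1f4 (chr13:23622117-23623148) the reach was 590 bp before to 441 bp after, and at H1f2 (chr13:23738258-23739081) it was 549 bp before to 274 bp after. These sites were 678, 1050, 1032 and 824 bp wide, each above the median of 438 bp over all HEB sites.

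HEB seldom covered a transcript start. Over all 17492 protein-coding genes with a known start, 32 had a site over it (0.183%). Of these 32, 6 encode histones: the 4 H1 members and the replication-independent variants H1f0, a linker histone of differentiated cells, and H3f3b, which encodes H3.3. Members with a site over the start were 4 of the 61 with a known start (6.56%). The clusters were selected with HEB results in view, so nothing is read from these counts. H1f1, with no AAACACA in its window, lay 24.6 kb from the nearest HEB site. H1f6, the testis-specific linker histone gene, has AAACACA in its window and lay 41.7 kb from the nearest site.

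Within 10 kb of a site there were 13 members (2.86% of all genes), since the H1 genes sit among core histone genes. Besides the 4 H1 genes these were H2bc6 at 0.993 kb, H3c11 at 1.71 kb, H4c6 at 2.81 kb, H2ac22 at 5.57 kb, H3c6 at 5.95 kb, H3c3 at 5.96 kb, H2bc22 at 6.28 kb, H2bc3 at 7.65 kb and H3c7 at 9.53 kb. H3c7 was the last inside the limit, and H2bc9 at 11037 bp the first outside it. H2bc6 has a gene model of 37455 bp with 2 known starts, and the end of the model closest to the HEB site lies beside H1f4. With each site given to its nearest gene alone, the 4 H1 genes were the only members left. No site lay within 10 kb of a member on chromosome 3 or 11.

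**Figure D4:**
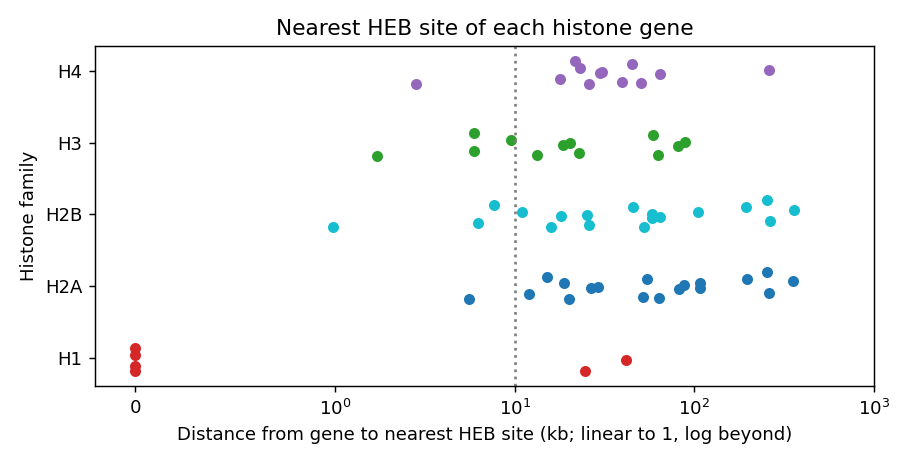
Distance in kb from each of 66 histone genes to the nearest HEB site (horizontal, linear to 1 kb and logarithmic beyond), by family, with small vertical offsets to separate points. The 4 H1 genes at 0 carry a site over the start, and the dotted line is at 10 kb.

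The H1 genes with HEB also had the strongest H3K4me3 of the chromosome 13 clusters. H3K4me3 fold was 15.8 at H1f4, 15.01 at H1f2, 14.96 at H1f5 and 13.7 at H1f3. The other H1 genes were lower, with 7.40 at H1f1 and 6.92 at H1f6. On chromosome 13, H3c11 and H2bc6 reached the level of these 4 genes, and both do so through peaks they share with H1f5 and H1f4. H3K27ac fold was 12.5 at H1f4, 11.8 at H1f2, 10.5 at H1f5 and 9.89 at H1f3, against 6.66 at H1f1 and 4.49 at H1f6. The 57 marked members without a site over the gene had median folds of 7.94 for H3K4me3 and 9.34 for H3K27ac. Some members with no HEB site within 10 kb were above all H1 genes. In H3K4me3 these were H2aw (23.1) on chromosome 11 and H2ac20, H2ac21 and H2bc21 (16.7) on chromosome 3. In H3K27ac it was H4c14 (13.1) on chromosome 3. The 4 H1 genes with HEB lay in H3K27ac peaks of 3.48 to 16.7 kb, and that at H1f2 also held H3c3, H2bc3, H2ac4 and H3c2. The part of these marks in the HEB sites was not tested.

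The general E-box CANNTG and 2 specific forms of it were searched, and their shares were not tested. CANNTG was in 42 of 61 members (68.9%) and in 72.1% of all promoters of the same length. Its forms CAGCTG and CAGGTG, which E proteins bind, were in 7 (11.5%) and 8 (13.1%) of the 61 members, against 17.4% and 22.1% of all promoters. Neither form was in the windows of the 4 H1 genes with HEB. Among the genes with HEB, CANNTG began 102 bases before the start of H1f4 and 243 bases before that of H1f5, and it was not in the windows of H1f2 and H1f3. The HEB sites reach beyond these windows, and their full sequence was not used here.

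The medians of the core histone families lay close together in H3K27ac. The median H3K27ac fold was 9.57 for 16 H2A, 9.34 for 15 H2B, 10.2 for 12 H3 and 7.91 for 12 H4 genes, and it was 10.2 for the 6 H1 genes. For H3K4me3 the medians were 8.07, 7.94, 9.89 and 7.15, and 14.3 for H1. Within each family the range was wider than these gaps, for example 4.49 to 13.1 in H3K27ac for H4. The strongest H3K27ac peak lay at H4c14 on chromosome 3 (fold 13.1), followed by that of H1f4 and H2bc6 (12.5), that of H4c8, H2ac10 and H3c8 (11.9) and that of H2ac20, H2ac21 and H2bc21 (11.9). The lowest H3K27ac folds were 2.58 at H2bu2, 4.49 at H1f6 and H4c3, and 4.51 at H4c18 and H2ac24. The highest H3K4me3 folds were 23.1 at H2aw and 16.7 at the chromosome 3 genes H2ac20, H2ac21 and H2bc21. The lowest were 3.36 at H4c18 and H2ac24, 4.18 at H4c2, 4.42 at H4c17 and 4.51 at H2bu2. Chromosome 3 members had a higher median H3K4me3 fold (12.1, n = 10 genes) than those of the proximal (7.51, n = 20) and distal (7.40, n = 29) clusters of chromosome 13.

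Most divergent H2A and H2B pairs lay within shared peaks. Among members with a known start, 10 pairs had starts pointing away from each other at 164 to 281 bp, and each joined an H2A and an H2B gene. Both genes of a pair lay in the same H3K4me3 peak and in the same H3K27ac peak in 7 of the 10 pairs. Distinct peaks at members had median widths of 2816 bp (H3K4me3) and 5998 bp (H3K27ac), far more than the distance between paired starts. Genes this close share nearly any peak at either of them, so the count says nothing about pairs as units. The H2ac8 and H2bc8 pair, whose interval is printed above, shared an H3K27ac peak of 9.15 kb with the H2bc7 and H2ac7 pair and H3c4 (fold 11.6). The 3 other pairs were H2bc23 with H2ac23, H2ac24 with H4bc24, and H2bc1 with H2ac1.

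The 5 members without an active mark fell into separate groups. H2bc1 and H2ac1 encode the testis-specific histones TH2B and TH2A. They lay 82.8 and 82.1 kb from the nearest H3K27ac peak and 168.8 and 169.5 kb from the nearest H3K4me3 peak. H2ac1 was counted with H3K27me3 through a peak of 722 bp at low fold (1.60, −log10 q of 1.42). That peak lay 0.843 kb from its gene end and did not overlap the gene. H1f6, also testis-specific, was counted with both active marks through the peaks of its neighbour H4c3, which began 0.844 kb (H3K4me3) and 0.573 kb (H3K27ac) from its gene end. H2bc23, H2ac23 and H4bc24 lie in a stretch of the proximal cluster where gene copies are nearly the same. The promoters of H2bc23 and H4bc24 were identical over 300 bases, and those of H4c17 and H4c18 over 298 of 300. Reads from such copies cannot be placed with certainty, their treatment by the authors is not stated in the labels, and values at these genes are uncertain. Less close copies lie elsewhere, and the same caution applies to them. The promoters of H3c15 and H3c14 on chromosome 3 matched at 284 of 300 bases. Those of H4c11 and H4c12 matched at 274. H2ac23 lay 1.11 kb from the nearest H3K4me3 peak and 1.05 kb from the nearest H3K27ac peak, just outside the 1 kb limit, while H2ac24 lay just inside it at 0.806 and 0.638 kb. A limit of 2.5 kb raised each count from 61 to 64 members.

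The members formed 4 clusters when neighbours less than 1 Mb apart were joined. The proximal cluster of chromosome 13 (21715711 to 22043658) held 23 members, the distal one (23531044 to 23934913) 31, that of chromosome 3 (96219885 to 96270192) 10, and the pair on chromosome 11 spanned 6282 bp. H3K27ac peaks covered 51.3% of the chromosome 3 cluster, against 15.5% of the 500 kb on both sides of it. They covered 20.3% of the proximal and 21.7% of the distal cluster, against 1.84% and 6.44% of their flanks. H3K27me3 covered none of the chromosome 3 cluster and 8.41% of the proximal one, against 12.7% and 25.9% of their flanks. On chromosome 11 it covered 59.0% of the pair's span and 60.0% of its flanks. There H2bu2 carried it in a peak of 10.5 kb (fold 2.41) beside weak active marks. H2aw was not counted with it but lay 1.16 kb from the nearest H3K27me3 peak, just outside the 1 kb limit. The median distance from a member's gene end to the nearest H3K27me3 peak was 29.2 kb.

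**Figure D5:**
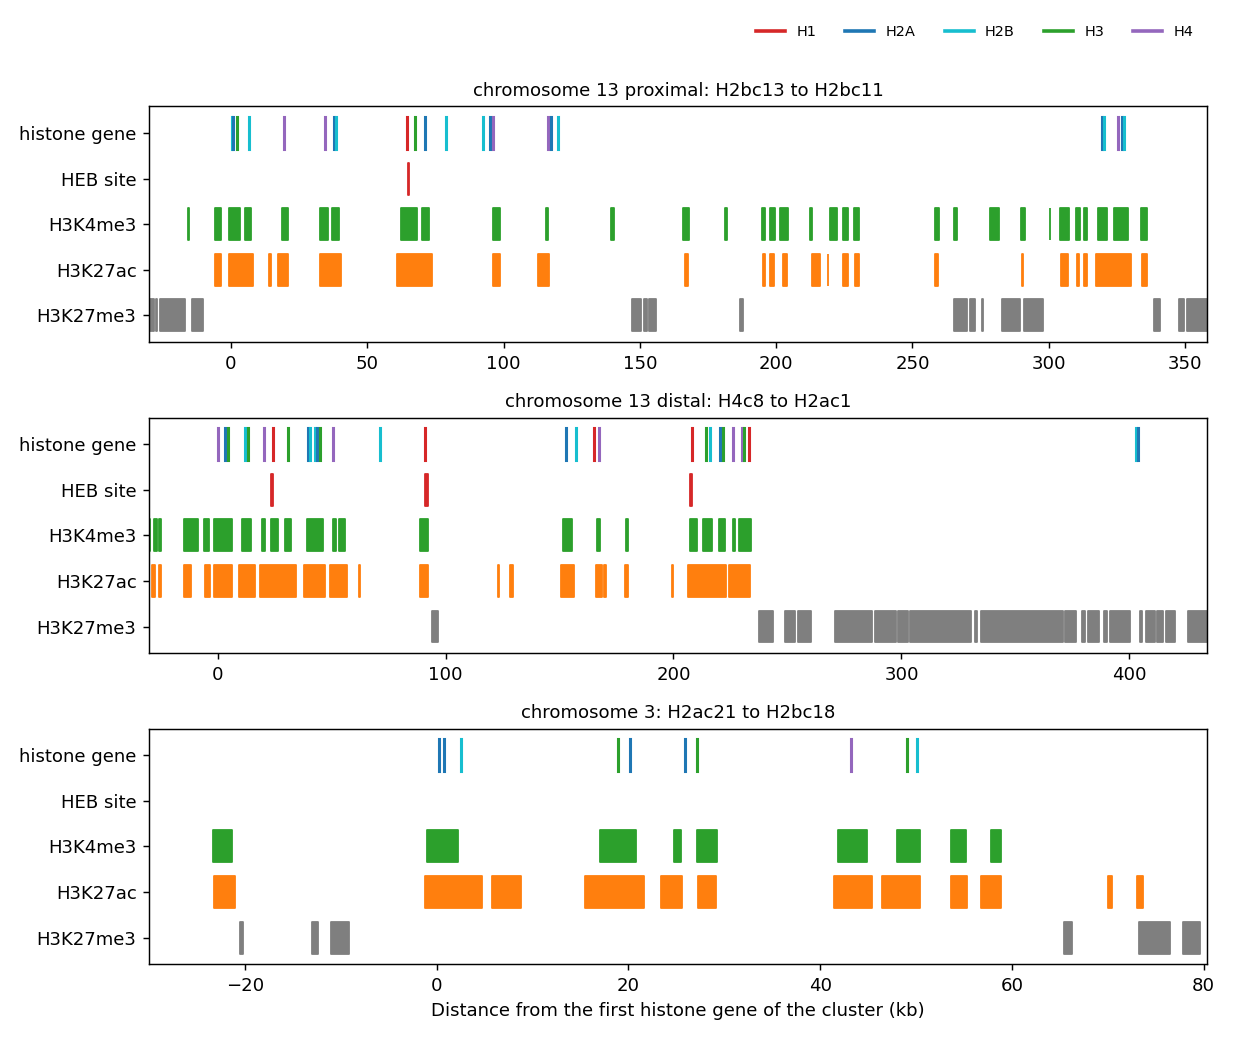
Maps of the 3 large clusters, each with its own kb scale, with histone genes as ticks coloured by family and HEB sites and peaks as blocks, by distance in kb from the first histone gene. HEB sites stand at H1 genes, and H3K27me3 fills most of the stretch between H1f1 and the H2bc1 and H2ac1 pair.

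In the distal cluster H3K27me3 lay mostly between H1f1 and the testis-specific pair H2bc1 and H2ac1. It covered 33.2% of the whole cluster, against 23.1% of its flanks, and 131.5 of the 134.1 kb covered fell in the 169.3 kb between H1f1 and H2bc1, of which it covered 77.7%. This stretch holds Trim38 and the transporter genes Slc17a1, Slc17a2, Slc17a3 and Slc17a4, all with H3K27me3 and neither active mark. Of the 10 other protein-coding genes inside the clusters, 7 carried H3K27me3 (32.3% of all genes), those of this stretch among them. H3K4me3 lay at 4 (55.8% of all) and H3K27ac at 3 (53.4% of all). Hfe, the iron regulator gene between H4c3 and H1f2, had H3K4me3 and H3K27ac at folds of 11.2 and 3.12, and Zfp184 in the proximal cluster had 28.8 and 4.84. None of the 10 lay within 10 kb of an HEB site (2.86% of all genes), and nothing is read from so few genes.

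Genes that control or accompany histone supply had H3K4me3 and H3K27ac folds with medians near or above those of all genes. All 22 genes of a list for transcription and 3′ processing of histone messages had H3K4me3 (55.8% of all genes), 20 had H3K27ac (53.4%) and 1, Sympk, had H3K27me3. Their median folds were 22.1 for H3K4me3 and 4.23 for H3K27ac, near the 20.4 and 4.34 of all genes with the marks. Npat had 31.6 and 3.89, and Slbp, whose product binds the stem-loop, had 32.9 and 7.99. The 2 without H3K27ac were Lsm11 and Gon4l. Among 19 histone chaperone genes all had both active marks, with medians of 26.1 and 4.50, and Supt16, a subunit of FACT, had the highest H3K27ac fold (11.5). All 11 listed histone variant genes outside the clusters had both active marks, with medians of 23.9 and 4.77. Examples were 39.4 and 7.72 at H3f3b, 31.6 and 8.36 at H2ax, and 9.15 and 1.85 at Macroh2a2. H3K27me3 lay at 2 of the 11 variant genes, Macroh2a2 and H1f10, and at 1 chaperone gene, Atrx (32.3% of all genes). None of the 3 lists shared the low H3K4me3 rank of the clusters by its median, at percentiles of 56.0, 69.0 and 62.3 among genes with the mark. HEB lay within 10 kb of 2 variant genes (H1f0 and H3f3b), 1 chaperone gene (Hjurp, at 3586 bp) and none of the 22 regulators. Over all genes the share was 2.86%, and nothing is read from such small counts.

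Of 8 mammary epithelial marker genes, 7 had H3K4me3 (55.8% of all genes) and the same 7 had H3K27ac (53.4%), among them Krt14 and Krt8, and Trp63 had neither at its gene ends. Their median percentiles among genes with the mark were 36.0 for H3K4me3 and 65.9 for H3K27ac, so a lower H3K4me3 rank was not limited to histone genes. H3K27me3 lay at 3 of the 8, Krt5, Epcam and Cdh1 (32.3% of all genes), beside both active marks. Of 8 markers of other cell types none had H3K4me3, 1, the endothelial gene Pecam1, had H3K27ac, and 4 had H3K27me3.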

How the data were processed

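Peak lists of 4 antibodies were analysed, each standing for 4 replicates. Input chromatin and single replicates were not analysed here. Coordinates are in mm10 and SAMtools was used, per the submitters' processing notes. Aligner and peak caller are not stated there or in the labels, nor is the joining of replicates for the histone marks. The HEB list is named a replicate consensus with a minimum overlap, so a site may rest on only some of the 4 replicates. The HEB list deposited by the authors holds positions only. The histone mark lists hold, per the broadPeak layout, the fold enrichment of each peak, the authors' ratio of ChIP over control, and its −log10 q-value, also the authors'. Both values served to describe and rank peaks within a list.

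Gene positions and promoters came from RefSeq tables of GRCm38.p6. A mark was counted at a gene when a peak overlapped 1 kb around either gene end, and HEB within 10 kb of the gene. When a gene had several peaks, the one with the highest fold was taken. Percentiles were ranks among protein-coding genes with the mark. Members and lists were chosen with earlier results of these data known, so no test was run, and counts stand beside the share over all genes. Folds were given for members with an HEB site over the start, for those with H3K27me3, and for the highest and lowest values. Other members within 10 kb of an HEB site were given by distance, few of them with folds. Members without an active mark were named. Promoter identity came from global alignments (Biopython 1.88). Interval code was checked on simulated data. Python 3.11.15 and pandas 2.3.3 were used. Alternatives changed the window, the peak threshold, the position, the overlap, the reach of HEB and the members.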

Additional observations from a re-analysis of the deposited data

How the results depend on the processing

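The lists hold no replicates, so leaving out a replicate could not be run, depth limits are unknown, and no value has an error. No paired analysis was possible because each antibody has 1 list with no column per replicate. Of 40 alternatives, 17 were labelled as leaving a result the same. That label allowed counts of members to differ somewhat, for example 54, 59 or 64 instead of 61. Medians had to be equal after rounding. With H3K4me3 peaks of more than their list's median fold, 12 members kept the mark instead of 61, while H3K27ac stayed at 61. Without chromosome 13, each active mark was at 12 members, all those on chromosomes 3 and 11, H3K27me3 at 1 and HEB at 0. H3K27me3, at 2 members, was at 1 with a 500 bp window, with −log10 q of 5 or more, with peaks above the median fold, at starts alone, and with 500 bp covered, and at 4 with 2500 bp. HEB, near 13 members at 10 kb, was near 5 at 1 kb, 7 at 5 kb, 54 at 100 kb, and 4 by nearest gene. The median fold per distinct peak was 7.82 for H3K4me3 and 8.92 for H3K27ac, and the median over members without chromosome 13 was 12.1 and 10.1. Chosen after seeing the data, percentiles by −log10 q had medians of 15.4 (H3K4me3) and 94.7 (H3K27ac), and among genes with peaks of 3 kb or more 3.50 and 94.7. Leaving out 8 members with promoters at least 90% identical to another's left 55 with each active mark.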

Other observations

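The proximal cluster of chromosome 13 is interrupted by a stretch of 197.6 kb between H4bc24 and H2ac12 that holds no histone gene of the rule and 31 transfer RNA genes of the RefSeq table, beside the protein-coding genes Zfp184, Pom121l2 and Prss16. Transfer RNA genes are read by RNA polymerase III. Within 1 kb of these genes H3K4me3 was found at 24 of 31 (77.4%) and H3K27ac at 19 (61.3%), and H3K27me3 at none. The 377 other transfer RNA genes elsewhere had them at 61.5%, 56.8% and 24.7%. Inside the whole stretch, peaks of the protein-coding genes included, 18 H3K4me3 peaks had a median fold of 11.9 and 13 H3K27ac peaks one of 2.82, against medians of 7.82 and 8.92 for the distinct peaks at histone genes. The highest H3K4me3 fold there, 28.8, was that of the Zfp184 peak. The stretch also held 9 H3K27me3 peaks with a median fold of 1.78. These values were looked up after the maps of the clusters had been seen and were not tested.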
